A study of Mus musculus with 6 samples.

Results

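The 5 transcripts described here are Ifit1, Ifit2, Ifit3, Ifit3b and Ifit1bl1, the mouse genes for interferon-induced proteins with tetratricopeptide repeats (IFIT). They were taken by symbol, and all 5 were found among the 47561 entries of each library. RNA of whole bone marrow cells was sequenced in 6 mouse libraries. In 3 of them (CUMS replicates 1 to 3) the mice had been under chronic unpredictable mild stress, a procedure of varied mild stressors used to induce depression-like behaviour, for 4 weeks, and the other 3 (control replicates 1 to 3) came from unstressed negative controls. The labels write CUMS with the treatment depression, and control with negative control, repeat CUMS and control as the genotype, name no allele, drug or transgene, and give neither strain, sex nor age for either group. The marrow was not sorted, so that fewer cells of a type and less RNA per cell cannot be told apart in any value below. The labels do not say whether each library came from its own animal, and p-values therefore measure only the spread between these libraries.

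IFIT proteins are made in most cells after type I interferon binds its receptor and the kinases Jak1 and Tyk2 activate the transcription factor complex ISGF3, which holds Stat2 and Irf9. They are repeat proteins of the cytosol that hold foreign RNA and limit its translation. Ifit1 binds RNA whose cap lacks the methyl group that host mRNA carries on the ribose of its first nucleotide, and Ifit2 is known for restricting virus growth in the nervous system of mice. Human IFIT3 strengthens the RNA binding of IFIT1. Ifit3b is a close copy of Ifit3 in mice, and Ifit1bl1 belongs to the Ifit1-like genes, as does a sixth gene, Ifit1bl2, which lies between the members and is given beside them.

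All 6 genes lie side by side on chromosome 19 within 112 kb (positions 34550550 to 34662981, GRCm38.p6, RefSeq). Ifit2 (34550550 to 34576534), Ifit3 (34583119 to 34588982), Ifit3b (34607530 to 34613403) and Ifit1 (34640889 to 34650009) are on the plus strand. Ifit1bl1 and Ifit1bl2 (34617046 to 34640827) are on the minus strand. In GENCODE the longest transcript of Ifit1, Ifit3, Ifit3b and Ifit1bl1 has 2 exons, and that of Ifit2 and Ifit1bl2 has 3. The RefSeq model of Ifit1bl1 (34592888 to 34662981) spans Ifit3b, Ifit1bl2 and Ifit1, while its GENCODE model ends at 34601956. Whether strand was used in making the values is not given in the sources used here, so reads of opposite genes could not be parted where models overlap.

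ISGF3 binds the interferon-stimulated response element, whose core was searched as GAAA, 2 bases of any kind and GAAA again, which reads TTTC, 2 bases and TTTC on the other strand. The bases before the annotated starts of the members are shown with their matches to this core. Ifit2 has no match there, while the other 4 do. Whether a match bears on the changes in CUMS marrow was not tested. Capitals mark each match to this core, found on either strand. The sequences are from RefSeq on GRCm38.p6, written 5′ to 3′ on the strand of the gene, each ending at the base before the start. The starts used here were 34640889 (Ifit1), 34550694 (Ifit2), 34583529 (Ifit3), 34607957 (Ifit3b) and 34601968 (Ifit1bl1). That of Ifit1 is the first base of its RefSeq span given above. The other starts, and the bases shown before them, lie inside the RefSeq spans of their genes.
Ifit1, chr19:34640749-34640888, plus strand: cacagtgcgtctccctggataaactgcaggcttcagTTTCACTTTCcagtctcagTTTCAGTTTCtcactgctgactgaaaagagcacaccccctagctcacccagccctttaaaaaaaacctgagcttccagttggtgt
Ifit2, chr19:34550554-34550693, plus strand: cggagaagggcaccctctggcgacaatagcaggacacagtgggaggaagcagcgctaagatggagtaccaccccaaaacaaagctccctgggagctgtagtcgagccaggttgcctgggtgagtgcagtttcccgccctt
Ifit3, chr19:34583359-34583528, plus strand: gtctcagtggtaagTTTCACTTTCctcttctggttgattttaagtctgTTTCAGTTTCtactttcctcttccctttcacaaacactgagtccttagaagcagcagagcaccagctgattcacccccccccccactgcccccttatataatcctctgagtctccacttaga
Ifit3b, chr19:34607757-34607956, plus strand: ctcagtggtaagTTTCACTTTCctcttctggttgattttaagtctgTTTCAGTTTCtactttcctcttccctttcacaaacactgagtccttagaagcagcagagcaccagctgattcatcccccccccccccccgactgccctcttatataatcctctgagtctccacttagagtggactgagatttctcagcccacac
Ifit1bl1, chr19:34601969-34602098, minus strand: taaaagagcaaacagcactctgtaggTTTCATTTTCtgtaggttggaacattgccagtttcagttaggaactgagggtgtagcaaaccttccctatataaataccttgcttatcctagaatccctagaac

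The motif was searched in windows of 300 bases, from 250 before to 50 after each start. Ifit1, Ifit3 and Ifit3b each had 2 matches, Ifit1bl1 had 1 at each of its 2 starts, and Ifit2 had none at either of its 2 starts. Among all 32851 promoter windows 3.44% held a match, and 3.99% of the 27025 genes with a window had a match in at least 1. Of 25 other interferon-stimulated genes with a window 9 did (36%). A core shorter by the last A, which every match to the full core contains, was also searched. Its share was 8.56% of all windows and 9.76% of genes, and the same number of members, 4, had a match. The windows of Ifit3 and Ifit3b were 94.5% identical over 274 aligned bases. Those of Ifit1 and Ifit1bl2, which start in opposite directions, share 245 bases of the genome (34640694 to 34640938), so the 2 matches counted for Ifit1bl2 are the same bases as those of Ifit1. A match describes the letters only, and the lack of a match in Ifit2 says nothing of sequence outside these windows.

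**Figure D1:**
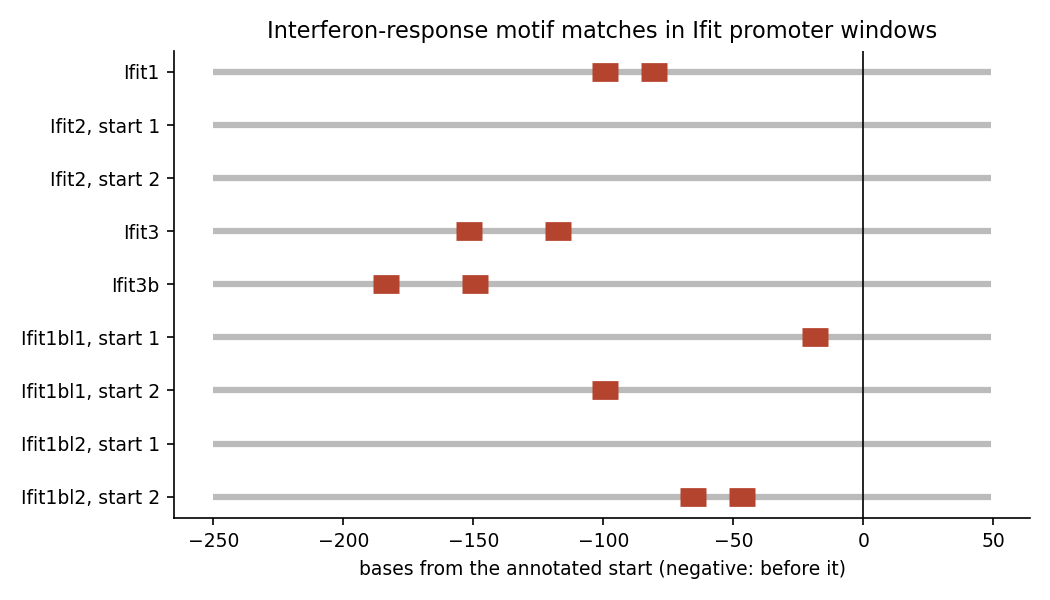
Positions of matches to the response element core (red boxes) in promoter windows of 300 bases (grey lines), against the distance in bases from each annotated start. Ifit1 matches began 104 and 85 bases before the start, Ifit3 matches 156 and 122, Ifit3b matches 188 and 154, and the Ifit2 windows held none.

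The transcripts differ in how well their reads can be told apart. The longest transcripts of Ifit3 (1745 nucleotides) and Ifit3b (2000 nucleotides) aligned over 1700 columns with 97.8% identity, and 18.4% of all 151-base windows of Ifit3, the length of 1 read, occur unchanged in Ifit3b. Reads of this pair may therefore be split between the genes, and their separate values are uncertain. Ifit1bl1 and Ifit1bl2 were 89.3% identical over 2210 columns, and Ifit1 and Ifit1bl1 85.7% over 734, with no shared window of read length in either pair. Ifit1 and Ifit1bl2 shared 1.2% of the windows of Ifit1, and Ifit2 shared none with any other family member.

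The values were FPKM, fragments scaled by transcript length and by library size, so that levels of different genes can be compared per length. Counts and depth were not given, and no steps of whole reads were seen in the lowest values. Between 21334 and 23224 entries per library were above 0. The file headers carry a code that no source explains. It is 1 in CUMS replicate 1 and control replicate 1, and 2 in the remaining 4 files, and it moved with 3747 of the 12302 tested genes at a limma adjusted p under 0.05 (limma with group and code as terms). Since it divides the groups evenly, changes are also given within each code. For the 4 members tested the difference between the codes did not pass (limma adjusted p from 0.0815 for Ifit3 to 0.812 for Ifit2).

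In CUMS marrow Ifit3 fell, with the largest decrease of the family, and Ifit1, Ifit3b and Ifit1bl1 had lower values in all 3 CUMS libraries than in any control library without passing the test or, for Ifit1bl1, being tested. Ifit2 overlapped between the groups. Of the 4 members that could be tested 1 was lower at a limma adjusted p under 0.05, Ifit3; over all 12302 tested genes 0.455% were lower 0.618% higher and 1.07% called in either direction (132 genes, 76 higher and 56 lower). Scaling every library to an equal FPKM total gave 65 higher and 101 lower. With the replicate number as a block 3 members (Ifit1, Ifit3 and Ifit3b) were lower, as were 4.31% of all tested genes, and with the header code as a term the same 3 and 7.31%. In the 4 libraries of code 2 alone 2 of the 3 members tested were lower (9.07% of tested genes), Ifit3b being under the filter there. With no filter on low values none of 5 was lower (0.0651%). All 3 CUMS libraries lay below all 3 controls for 4 of the 5 members, and for 12.1% of all tested genes. Genes were tested if at least 3 of the 6 libraries reached 1 FPKM. Ifit3b met this only through the 3 controls, and Ifit1bl1 reached 1 FPKM in only 2 libraries, both controls.

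Ifit3 had 1.62, 1.25 and 1.20 FPKM in CUMS replicates 1 to 3, against 5.44, 3.73 and 4.66 FPKM in control replicates 1 to 3. The highest CUMS library was thus below the lowest control. The means were 1.36 ± 0.234 FPKM in CUMS and 4.61 ± 0.855 FPKM in control marrow (SD, n = 3 libraries each), a mean 70.6% lower in CUMS. On the log2(FPKM + 1) scale the change was −1.24 (SE 0.148, 95% interval −1.59 to −0.90, limma adjusted p = 0.0120), and only 6 of the 12302 tested genes had a more negative change. It was −1.29 in the libraries with header code 1 and −1.22 in those with code 2. The call was lost without CUMS replicate 2 (limma adjusted p = 0.0787), without CUMS replicate 3 (0.0809) and without control replicate 3 (0.0780), with changes of −1.21, −1.20 and −1.23, and when no gene was left out for low values (0.0895).

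Ifit3b, the copy of Ifit3, was lower in level in every library: 0.640, 0.719 and 0.628 FPKM in CUMS replicates 1 to 3, against 2.32, 1.49 and 1.36 FPKM in control replicates 1 to 3. Every CUMS value was under 1 FPKM and every control value above it, and the controls spread more widely. The means were 0.662 ± 0.0494 FPKM in CUMS and 1.72 ± 0.519 FPKM in control (SD, n = 3 each), 61.6% lower in CUMS. The log2 change was −0.70 (SE 0.157, limma adjusted p = 0.0887), and −1.22 with a pseudocount of 0.1 in place of 1 (limma adjusted p = 0.0812). With the replicate number as a block the limma adjusted p was 0.0287, and with the header code as a term 0.0133. When the FPKM of Ifit3 and Ifit3b were summed, the pair fell by 1.27 on the log2 scale (limma adjusted p = 0.0116). The sum does not fully remove the effect of a split of their reads, since each value is scaled by its own transcript length. Whether reads that match both genes were counted is not given in the sources used here.

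Ifit1, the family member that recognises caps lacking ribose methylation, had 2.24, 2.63 and 2.17 FPKM in CUMS replicates 1 to 3, against 5.26, 4.37 and 3.75 FPKM in control replicates 1 to 3. The groups did not overlap, and control replicate 1 was the highest library. The means were 2.35 ± 0.244 FPKM in CUMS and 4.46 ± 0.757 FPKM in control (SD, n = 3 each), 47.3% lower in CUMS. The log2 change of −0.70 (SE 0.135, 95% interval −1.01 to −0.39) missed the threshold (limma adjusted p = 0.0640). With the replicate block the limma adjusted p was 0.0171, with the header code as a term 0.00912, and in the 4 libraries of code 2 alone 0.0215 (change −0.57). In the pair with code 1 the change was −0.95.

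Ifit1bl1, an Ifit1-like gene, had 0.450, 0.645 and 0.598 FPKM in CUMS replicates 1 to 3, against 1.68, 1.31 and 0.956 FPKM in control replicates 1 to 3. The lowest control still lay above the highest CUMS library. Its means were 0.565 ± 0.102 FPKM in CUMS and 1.32 ± 0.361 FPKM in control (SD, n = 3 each), 57.1% lower in CUMS. The difference of means was −0.56 on the log2(FPKM + 1) scale, which shrinks changes at levels near or under 1 FPKM. With no filter on low values its limma adjusted p was 0.286. Its neighbour Ifit1bl2, which shares its promoter region with Ifit1, had 2.05, 2.03 and 1.89 FPKM in CUMS replicates 1 to 3, against 3.60, 3.59 and 2.93 FPKM in control replicates 1 to 3, again without overlap (log2 change −0.54, SE 0.115, limma adjusted p = 0.0767, with the replicate block 0.0221).

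Ifit2 had 2.79, 3.91 and 3.08 FPKM in CUMS replicates 1 to 3, against 4.24, 3.78 and 3.64 FPKM in control replicates 1 to 3. CUMS replicate 2 lay above 2 of the controls. The means of 3.26 ± 0.580 FPKM in CUMS and 3.89 ± 0.312 FPKM in control (SD, n = 3 each) gave a log2 change of −0.21 (SE 0.131, limma adjusted p = 0.512), with a 95% interval from −0.51 to 0.10. The interval does not exclude a decrease, but it lies above the whole interval of Ifit3. The change was −0.47 with header code 1 and −0.08 with code 2. An exact two-sided permutation test, which cannot go below p = 0.1 with 3 against 3 libraries, gave p = 0.3 for Ifit2 and p = 0.1 for each of the other 4 members.

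**Figure D2:**
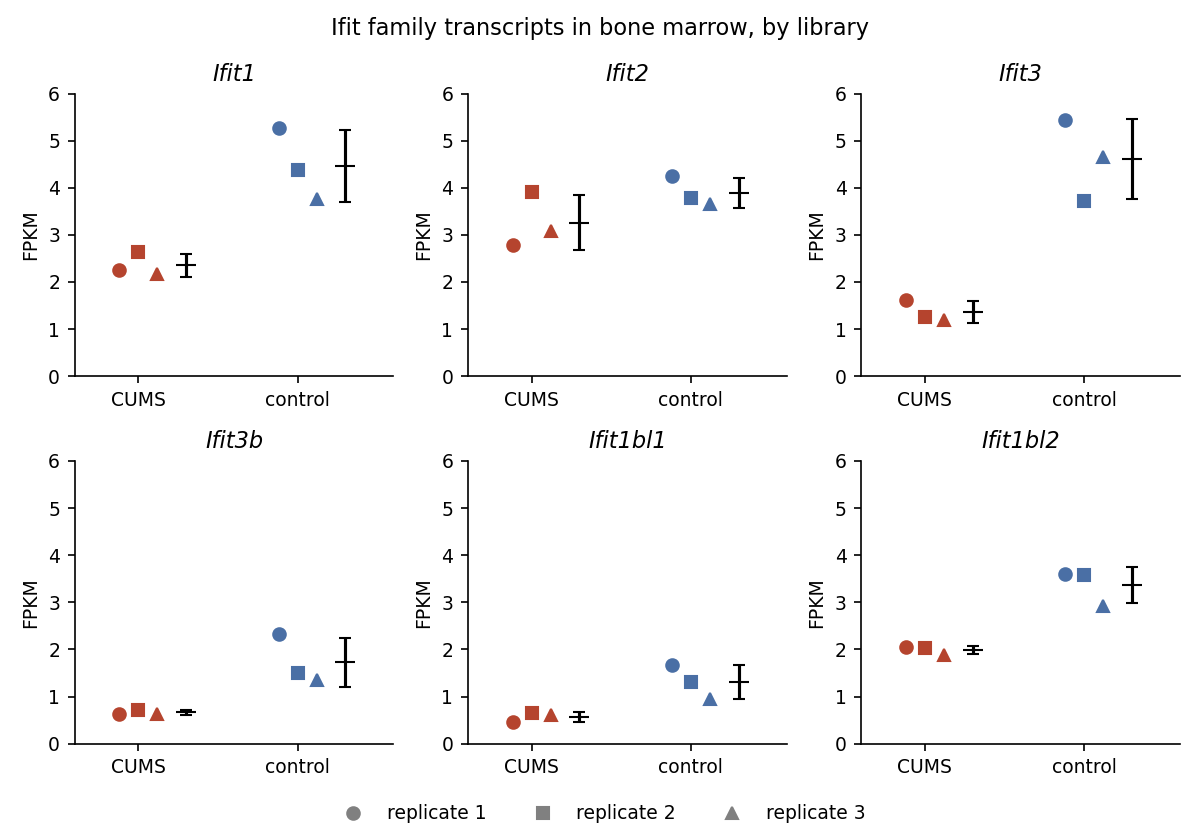
FPKM of each Ifit gene in the 3 CUMS (red) and 3 control (blue) libraries, with symbols for the replicate number and the mean ± SD of each group in black. The groups are apart for every gene shown but Ifit2, where CUMS replicate 2 (3.91 FPKM) lies among the controls.

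**Figure D3:**
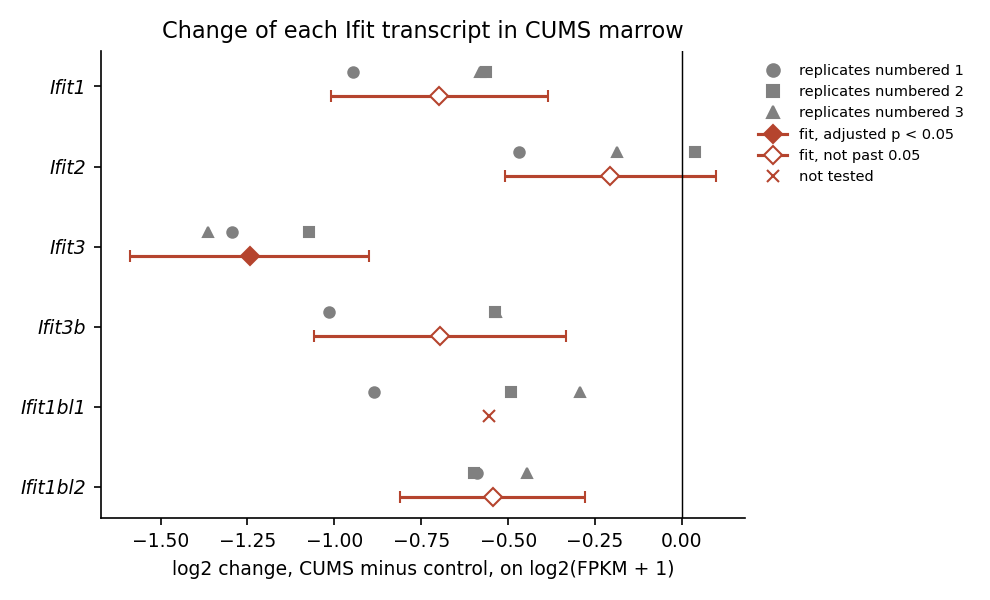
Log2 change of each Ifit gene, CUMS minus control on log2(FPKM + 1). Grey symbols are the differences between libraries with the same replicate number, diamonds the limma estimate with its 95% interval (filled where the adjusted p is under 0.05), and the cross the untested Ifit1bl1. Ifit3 stands at −1.24 and Ifit2 at −0.21, where the interval crosses 0.

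The 5 members summed to 7.75, 9.15 and 7.67 FPKM in CUMS replicates 1 to 3, against 18.9, 14.7 and 14.4 FPKM in control replicates 1 to 3. Ifit2 made up 39.6% ± 3.38 of the sum in CUMS and 24.5% ± 1.84 in control, and Ifit3 16.7% ± 3.80 and 28.8% ± 3.51 in the same order (SD, n = 3 each). The share of Ifit1 was 28.7% ± 0.317 in CUMS and 27.9% ± 1.82 in control. In CUMS marrow the order of the levels was Ifit2, Ifit1, Ifit3, Ifit3b and Ifit1bl1, and only the last pair overlapped in range. In control marrow it was Ifit3, Ifit1, Ifit2, Ifit3b and Ifit1bl1. There the ranges of Ifit3, Ifit1 and Ifit2 overlapped, as did those of Ifit3b and Ifit1bl1.

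Ratios of levels within a library show the same difference without regard to scaling between libraries. The ratio of Ifit3 to Ifit2 was 0.582, 0.319 and 0.389 in CUMS replicates 1 to 3, against 1.28, 0.986 and 1.28 in control replicates 1 to 3. That of Ifit1 to Ifit2 was 0.728 ± 0.0683 in CUMS and 1.14 ± 0.106 in control, and that of Ifit3 to Ifit1 was 0.583 ± 0.128 and 1.04 ± 0.194 in the same order (SD, n = 3 each). None of these ratios overlapped between the groups. Each had an exact permutation p of 0.1, the smallest that 3 against 3 libraries can give (0.167 after Benjamini-Hochberg adjustment over 5 ratios). The ratios of Ifit3b to Ifit3 and of Ifit1bl1 to Ifit1 overlapped between the groups (exact permutation p = 0.3 and 0.2, adjusted 0.3 and 0.25).

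**Figure D4:**
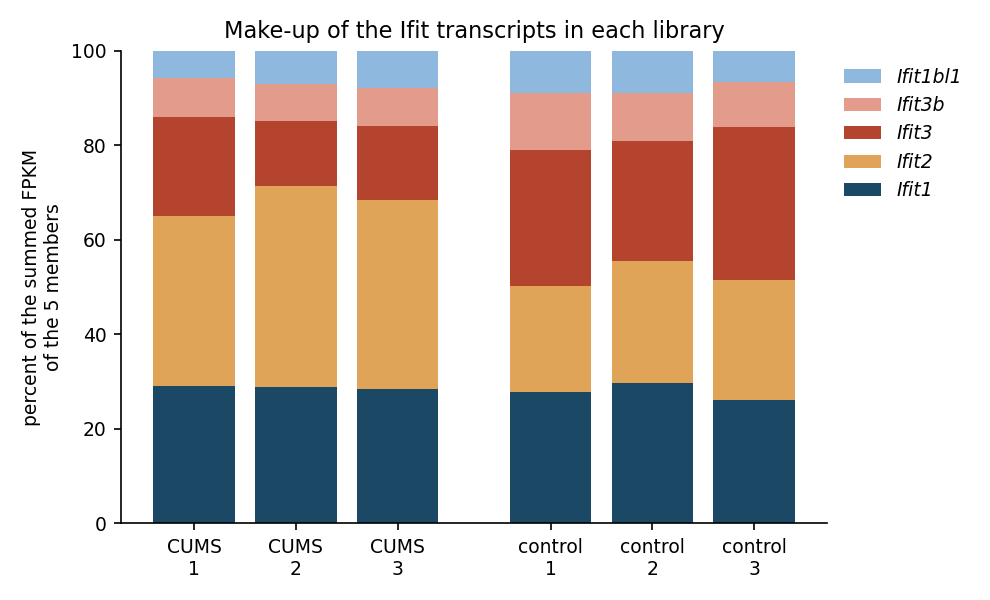
Share of each member, in percent, in the summed FPKM of the 5 members, with a bar for each library. The Ifit2 segment is larger in the CUMS bars (36.0% to 42.7%) than in the control bars (22.4% to 25.8%), and the Ifit3 segment smaller.

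Genes that flank the cluster did not pass the test. Lipa, lysosomal acid lipase, ends 23.1 kb before Ifit2 and was at 15.4, 13.2 and 15.0 FPKM in CUMS against 17.8, 18.0 and 17.5 FPKM in control replicates 1 to 3 (log2 change −0.28, limma adjusted p = 0.223). Fas, the death receptor, had a log2 change of 0.14, Acta2, smooth muscle actin, −0.59 and Kif20b, a mitotic kinesin, 0.23 (limma adjusted p = 0.666, 0.0787 and 0.545), and of the 4 tested only Acta2 passed with the replicate block (limma adjusted p = 0.0221). Ch25h, cholesterol 25-hydroxylase, was listed at 0 in all 6 libraries, and Slc16a12, 5.42 kb beyond the cluster, stayed under 0.05 FPKM. Pank1 and Htr7, the other 2 of the 8 flanking protein-coding genes, were below the minimum for testing.

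Along the pathway that induces the family, the interferons themselves were hardly measured. Of 21 ligand genes 18, Ifnb1 and all type I alpha genes searched among them, were listed at 0 in all 6 libraries, and none was tested. Ifng, the type II interferon of T and NK cells, had 0.411, 0.747 and 0.530 FPKM in CUMS replicates 1 to 3, against 0.322, 0.203 and 0.291 FPKM in control replicates 1 to 3, higher in each CUMS library but under the minimum. None of the 9 receptor and kinase genes passed, the median log2 change being −0.17. With the replicate block 2 were lower, where 4.31% of all tested genes were. These 2 were Ifnar2 and Ifngr2, a chain of the type II receptor (limma adjusted p = 0.0437). Ifnar2, a chain of the type I receptor, was at 32.7, 32.9 and 34.4 FPKM in CUMS and 42.3, 41.7 and 41.4 FPKM in control replicates 1 to 3 (log2 change −0.32, limma adjusted p = 0.118, with the replicate block 0.0376). Ifnar1, the other chain, overlapped between the groups (log2 change −0.18, limma adjusted p = 0.558), and so did the kinases Jak1 (0.08, limma adjusted p = 0.724) and Tyk2 (−0.17, limma adjusted p = 0.645).

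Of 10 tested STAT and IRF genes 3 fell, where 0.455% of all tested genes did, and none rose. The median was −0.39, against −0.0017 over all tested genes. Irf9, the DNA-binding part of ISGF3, had 21.8, 22.6 and 21.7 FPKM in CUMS replicates 1 to 3, against 39.4, 34.8 and 34.5 FPKM in control replicates 1 to 3 (log2 change −0.69, SE 0.0910, limma adjusted p = 0.0182). Stat2, which joins Irf9 in that complex, had a log2 change of −0.57 (limma adjusted p = 0.109, with the replicate block 0.0113). Irf7, which amplifies interferon production, fell by 1.03 on the log2 scale (limma adjusted p = 0.00911). Of the 10, 5 fell with the replicate block, where 4.31% of all tested genes did.

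Of 35 other interferon-stimulated genes 32 were tested and 12 fell, against 0.455% of all tested genes, and none rose. All 32 had values towards lower, where 50.3% of all tested genes did, and their median log2 change was −0.61. All 3 CUMS libraries were below all controls for 27 of them, as they were for 12.1% of all tested genes. With the replicate block 26 fell, where 4.31% of all tested genes did. Mx2 passed the filter only through the controls. The smallest p-values were those of Oas1a, Usp18, Oasl2 and Ifi27l2a, with log2 changes of −1.22, −1.12, −1.26 and −1.54. Isg15, a ubiquitin-like modifier, was at 65.0, 60.1 and 49.5 FPKM in CUMS and 136, 93.1 and 94.9 FPKM in control replicates 1 to 3 (log2 change −0.87, limma adjusted p = 0.0679, with the block 0.00561). The list was chosen with earlier results of these data known. The number that fell was 3 without control replicate 3, 4 when either CUMS replicate 2 or 3 was left out and 5 without control replicate 2. It was 6 without CUMS replicate 1 and 15 without control replicate 1. Over all 12107 to 12206 genes tested in these fits, 5 were lower without control replicate 3. Without CUMS replicates 2 and 3 in turn 8 and 7 were lower, and without control replicate 2 there were 13. Without CUMS replicate 1 the number was 26, and without control replicate 1 it was 97.

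None of 9 tested RNA and DNA sensors passed, and the median was −0.33. The smallest p was that of Zbp1, a sensor of Z-form nucleic acid (log2 change −0.68, limma adjusted p = 0.0784). Dhx58, a helicase of the Rig-I family, had a log2 change of −0.60, Ddx58, which encodes Rig-I, −0.36 and Ifih1, which encodes Mda5, −0.33 (limma adjusted p = 0.116, 0.117 and 0.218). With the replicate block 3 of the 9 were lower, where 4.31% of all tested genes were. These 3 were Zbp1, Dhx58 and Ddx58 (limma adjusted p = 0.0146, 0.0108 and 0.0364), and Ifih1 was not lower (0.0687). Among 8 genes that restrain the response Usp18, which removes Isg15 and blocks receptor signalling, fell, and Socs3, which acts as a feedback brake on cytokine receptors, rose. Over all tested genes 0.455% fell and 0.618% rose. Isg15 was lower as well with the replicate block, where 4.31% of all tested genes were. Usp18, Isg15, Irf7 and Zbp1 are each also on the list of interferon-stimulated genes. Socs3 was at 18.0, 19.5 and 16.6 FPKM in CUMS against 9.49, 10.4 and 11.3 FPKM in control replicates 1 to 3 (log2 change 0.74, limma adjusted p = 0.0245). Socs1, which restrains Jak kinases, had a log2 change of −0.45 (limma adjusted p = 0.257).

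The enzymes that methylate caps, and the initiation factor eIF3, were also measured. None of 5 cap methyltransferase genes and none of 13 subunits of eIF3, which IFIT proteins bind, passed the test. Rnmt, which methylates the cap guanine, had 13.4, 13.7 and 9.03 FPKM in CUMS replicates 1 to 3, against 6.70, 6.73 and 6.84 FPKM in control replicates 1 to 3, without overlap (log2 change 0.73, limma adjusted p = 0.0776, with the replicate block 0.0226). Cmtr1, which methylates the ribose that Ifit1 discriminates by, was at 24.9, 21.1 and 22.7 FPKM in CUMS and 25.7, 24.4 and 24.5 FPKM in control replicates 1 to 3 (log2 change −0.12, limma adjusted p = 0.614). The median of the eIF3 subunits was 0.19, and 12 of 13 had values towards higher, while 50.3% of all tested genes had changes below 0. None of the 13 passed with the replicate block either.

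**Figure D5:**
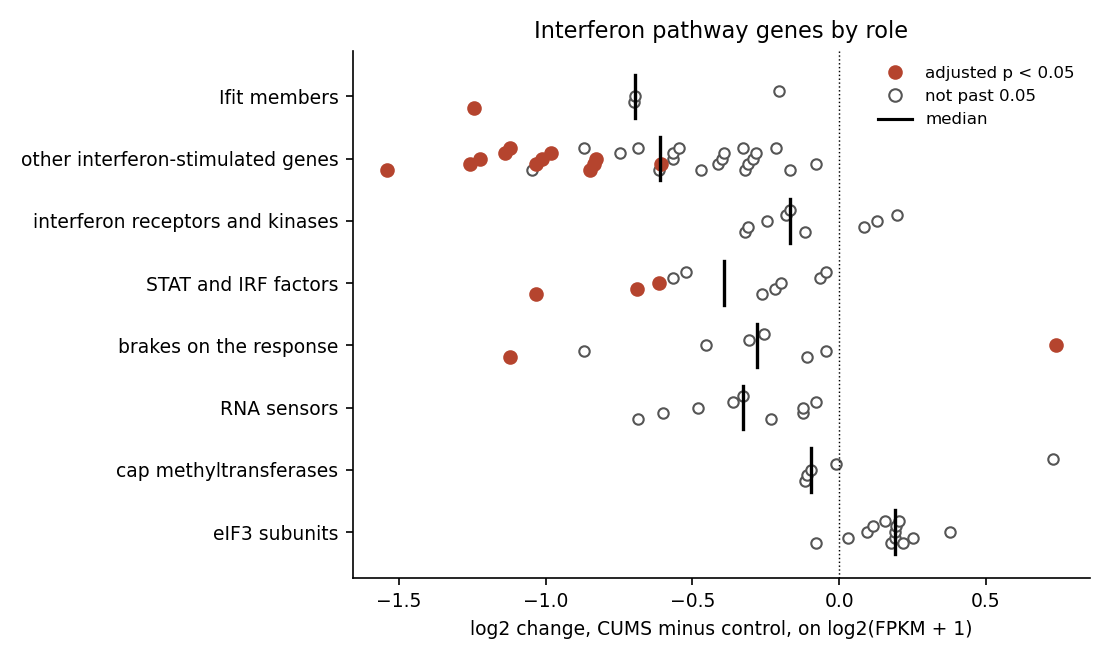
Log2 change, CUMS minus control on log2(FPKM + 1), of tested genes by role, with a point for each gene, filled where the limma adjusted p is under 0.05, and a bar at the median. The Ifit members (from −1.24 to −0.21) lie in the range of the other interferon-stimulated genes, and the eIF3 subunits lie near or above 0.

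The genes whose profile was nearest to that of the family were sought among 12074 tested genes whose log2 value averaged 1 or more. Likeness was the root mean square difference over the 6 libraries between a gene's log2(FPKM + 1), less its control mean, and the mean of the same over the 4 tested members. The 8 nearest were Pafah1b3, Irf9, BC051226, Ms4a4c, E030030I06Rik, mt-Rnr1, mt-Rnr2 and Zbp1, with differences from 0.0414 to 0.0935. Irf9 and Zbp1 were also on the lists above, and Ms4a4c is among the monocyte markers below. Pafah1b3, a subunit of an acetylhydrolase of platelet-activating factor, was at 24.2, 24.0 and 23.6 FPKM in CUMS and 45.8, 36.5 and 35.9 FPKM in control replicates 1 to 3 (log2 change −0.69, limma adjusted p = 0.0354). Both mitochondrial ribosomal RNAs were near: mt-Rnr2 had a log2 change of −0.77 and mt-Rnr1 of −0.63 (limma adjusted p = 0.0283 and 0.0786, the second 0.0297 with the replicate block). BC051226, Ms4a4c and E030030I06Rik did not pass with group as the only term (limma adjusted p = 0.0701, 0.0591 and 0.0548). They passed with the replicate block (limma adjusted p = 0.0263, 0.0171 and 0.0171) and with the header code as a term (0.0128, 0.00619 and 0.00881). They also passed in the libraries of code 2 alone (limma adjusted p = 0.0241, 0.00851 and 0.0237). The likeness rests on 6 libraries that fall into 2 groups, which each gene shares.

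Markers of marrow cells were present throughout, none of the 71 listed being at 0 in all libraries. Of 14 monocyte markers 3 fell (Csf1r, Cx3cr1 and Fcgr1), where 0.455% of all tested genes did, and the median log2 change was −0.43. With the replicate block 8 were lower and 1, Nr4a1, was higher, where 4.31% of all tested genes were lower and 3.49% higher. Nr4a1, a nuclear receptor needed by patrolling monocytes, was at 18.7, 29.5 and 23.7 FPKM in CUMS and 9.13, 14.6 and 13.9 FPKM in control replicates 1 to 3 (log2 change 0.89, limma adjusted p = 0.101, with the block 0.00353). Ly6c2 (log2 change 0.05) and F13a1 (−0.0039) overlapped between the groups. The 14 monocyte markers summed to 1181 to 1247 FPKM in CUMS and 1188 to 1422 FPKM in control, and Ly6c2 was the largest part (means 727 and 708 FPKM). Macrophage markers summed to 165 to 180.0 FPKM in CUMS against 198 to 253 FPKM in control, plasmacytoid dendritic cell markers to 239 to 263 against 293 to 337 FPKM, and B cell markers to 428 to 471 against 504 to 586 FPKM, and none of these 25 genes passed the test. Under the block 4 macrophage, 2 plasmacytoid and 2 B cell markers were lower. Markers within these 3 lists did not move alike. Log2 changes were above 0 for the macrophage markers Vcam1 (0.01) and Spic (0.02) and the plasmacytoid markers Tcf4 (0.10) and Klk1 (0.10). The same held for the B cell markers Ms4a1 (0.05) and Ebf1 (0.16), while all other genes of the 3 lists had changes below 0. Bst2 among the plasmacytoid markers is itself induced by interferon, while Siglech, which is not on the interferon list, averaged 18.4 ± 0.547 FPKM in CUMS and 18.8 ± 0.377 FPKM in control (SD, n = 3 each). Neutrophil markers overlapped between the groups in their sum (49533 to 51811 FPKM in CUMS, 47112 to 65612 FPKM in control), and none of the 10 passed, nor did any of 8 T and NK cell, 8 erythroid or 6 progenitor markers. With the block 1 progenitor marker, Ctsg, was higher (limma adjusted p = 0.0476). The part of such differences in the Ifit values was not tested.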

How the data were processed

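The authors deposited FPKM values per gene for each library. The unit is named in no label or header and was inferred: values are not whole, and value times longest GENCODE transcript in kilobases sums to 959134 to 1020437 per library. Per the submitters' processing notes the tools were HISAT2 2.1 and featureCounts 1.6.4, beside bcl2fastq 2.19, DESeq2 2.11.40.6 and cutadapt 1.16.5, and the build mm10. Which tool made the values is not given in the sources used here. Libraries were prepared from total RNA with a TruSeq kit and read as pairs of 151 bp, per the labels. Low values took no steps of whole reads, so depth is unknown and precision rests on the 3 libraries per group.

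The 12302 genes that reached 1 FPKM in 3 or more of 6 libraries were fitted by limma-trend on log2(FPKM + 1) with group as the only term and Benjamini-Hochberg adjustment over all of them (threshold 0.05; R 4.3.3, limma 3.58.1, Python 3.11.15, scipy 1.17.1, Biopython 1.88). Simulated data held 12119 genes, with the spread within groups of these libraries drawn at random for each gene separately. The changed genes were drawn from those with a mean log2(FPKM + 1) above 2. Of these, 70 of 100 changed 2-fold and 39 of 100 changed 1.5-fold were called, with 6 false calls among 115. Ifit3 (mean 1.85), Ifit3b (1.08) and Ifit1bl1 (0.92) lie below that level, so these rates do not carry over to them. A difference by header code shared between genes was not simulated. Deviations from the group means correlated across genes by 0.689 (replicates 1), 0.452 (replicates 2) and 0.363 (replicates 3). CUMS 3 with control 2 gave 0.459, and CUMS 2 with control 3 gave 0.362. The correlations thus did not part replicates 2 from 3, and no label says that libraries of the same number belong together. Values with the number as a block therefore rest on an assumed pairing. They are given where they change the call of a gene described singly, and for lists as counts. Members and lists were chosen with earlier results of these data known. Named genes were all members, other Ifit genes, up to 4 list genes with the smallest p, the 8 nearest profiles and 4 coding genes on each side of the cluster; others (Isg15, Stat2, Tyk2, Jak1, Ifnar1, Ifng, Socs1, Mx2, Siglech and the markers named) were added after their values were seen. The values of 1 gene on a pathway list are not reported here. Proteins were not compared; transcripts were aligned in their place. Alternatives covered pseudocount, filter, scaling, block, header code, left-out libraries, trend and the sum of Ifit3 with Ifit3b.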

Additional observations from a re-analysis of the deposited data

How the results depend on the processing

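Under every alternative run the log2 changes of Ifit1, Ifit2, Ifit3 and Ifit3b kept their negative sign wherever they could be fitted. Many of these runs could not have changed the sign. The replicate block, the header code term, the other filters and the fit without trend leave the estimate itself the same. For Ifit1, Ifit3 and Ifit3b the groups do not overlap, so no pseudocount or left-out library could reverse the change. With single libraries left out they ranged from −0.79 to −0.59 for Ifit1, −0.31 to −0.13 for Ifit2, −1.36 to −1.14 for Ifit3 and −0.72 to −0.68 for Ifit3b, which reached the filter in 3 of 6 such fits. Counts of calls depended on the setting. The 132 genes called became 36 with no filter on low values, 199 with quantile normalization, 959 with the replicate block, 1645 with the header code as a term, 2178 in code 2 alone, and 12 to 255 with single libraries left out (12 without control replicate 3, 255 without control replicate 1). The 1 member called became 0, 3, 3 and 2 with no filter, the replicate block, the code term and code 2 alone, and 0 to 1 with single libraries left out. The 15 genes called over all pathway lists became 3, 36, 46 and 51 under the same 4 settings, and 3 to 18 with single libraries left out. The 12 other interferon-stimulated genes that fell became 3, 26, 28 and 26, and 3 to 15. The cause of these shifts was not tested. No log2 change of a member reversed, which many of the settings could not have brought about, and the replicate block ended no member's call. The balance of all calls did turn: 76 genes were higher and 56 lower, against 65 and 101 after equal-total scaling, 429 and 530 with the replicate block, and 746 and 899 with the code term. Depth is unknown, so that no limit of detection can be given for members near or under 1 FPKM.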
